A study of Mus musculus with 4 samples.

Results

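The genes of cholesterol and fatty acid synthesis were followed in cultured mesenchymal cells of the mouse whisker follicle. The set was defined by gene name, with earlier results of these data known: 18 enzymes that lead from acetyl-CoA to cholesterol, 5 regulators, 1 sterol transfer protein and 7 enzymes of fatty acid synthesis. All 31 were found among the 51826 genes of the deposited table. Each had more than 100 counts in every library, and the lowest count of any of them was 269.

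The cells were dermal papilla cells (DPCs), from the mesenchymal core of the hair bulb, and dermal sheath cells (DSCs), from the connective tissue around the follicle. The study's methods describe vibrissa follicles of EGFP-transgenic C57BL/6J mice aged 5 to 6 weeks, while the labels give the genotype of every group as WT. Whether the cells carried the EGFP transgene therefore rests on the methods alone. Both cell types were grown in medium with fetal bovine serum and collected as low-passage cells (passage 3) or high-passage cells (passage 9). Each of the 4 groups was 1 library of polyadenylated RNA, with no replicate culture. The comparisons below therefore describe these libraries, and passage cannot be told apart from the time at which a library was made, since the labels name no batch.

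Cholesterol is built from acetyl-CoA. The early enzymes make mevalonate and join its products into farnesyl diphosphate, which also feeds the isoprenoid branches. The later enzymes make squalene, close it into lanosterol and trim that to cholesterol. Fatty acids start from the same acetyl-CoA through malonyl-CoA. Both pathways are switched on by the SREBP transcription factors, membrane proteins encoded by Srebf1 and Srebf2. When sterols are low, SCAP escorts SREBP from the endoplasmic reticulum to the Golgi, where proteases release the active part. When sterols are high, the INSIG proteins hold SCAP back. Insig1 is itself a target of SREBP. Lipid in the serum of a culture medium is known to lower the activity of this pathway. In skin, lipid synthesis is best known from sebaceous glands, and inherited defects of the later sterol enzymes affect skin and hair.

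The total was 34981284 to 47604059 counts per library, and the 10 most abundant genes took 8.3% to 11% of them. The labelled cell types were checked against lists of markers, which followed the labels only in part. Of 9 dermal papilla markers, Sox2 was 45.6 and 41.6 CPM (counts scaled to library size) in the DPC libraries and 7.10 and 3.91 CPM in the DSC libraries at passages 3 and 9. Ncam1 was higher in DSCs (310 and 342 CPM) than in DPCs (99.0 and 46.7 CPM), and Vcan was 64.0 to 139 CPM in every library. Alpl had 6 to 23 counts, Corin had at most 10, Prom1 at most 7 and Wif1 0 in every library. Rspo3 was 1.90 and 5.47 CPM in DPCs and 1.58 and 2.17 CPM in DSCs at passages 3 and 9. Lef1 was 13.8 CPM in low-passage DPCs and 0.06 CPM, which is 2 counts, in high-passage DPCs. All 5 dermal sheath markers were higher in DPCs than in DSCs at passage 3 beyond counting error, against their label, with smooth muscle actin Acta2 at 7127 and 5731 CPM. At passage 9, 4 of the 5 were lower in DPCs, with Acta2 at 1872 CPM in DPCs and 4333 CPM in DSCs. Of 7 fibroblast markers, 6 were at 86.9 CPM or more in every library and Lum had 0 to 109 counts. Col1a1 was 7247 CPM in low-passage DPCs and 1219 CPM in high-passage DPCs. In high-passage DPCs 4 of the 7 were lower and 2 higher beyond counting error (33.8% and 35.2% of all tested genes). In high-passage DSCs 3 were lower and 4 higher (27.7% and 28.1%). Pdgfra was 304 and 811 CPM in DPCs and 121 and 266 CPM in DSCs at passages 3 and 9. Dcn was 87 and 1966 CPM in DSCs. Markers of other cells were at low levels, and some moved with passage. The summed level of the immune markers was 21.2 and 9.0 CPM in DPCs and 32.9 and 14 CPM in DSCs at passages 3 and 9. That of the endothelial markers was 2.4 and 0.1 CPM in DPCs and 5.5 and 1.0 CPM in DSCs, and that of the Schwann cell markers 7.3 and 3.7 CPM in DPCs and 13.7 and 5.1 CPM in DSCs. Cdh5 and Sox10, defining markers of endothelial and Schwann cells, had 0 counts in both high-passage libraries. The melanocyte sum was 11.2 to 28.3 CPM, nearly all of it Mitf, with 3 of 5 markers at 0 in every library. Among 8 adipocyte markers, 6 were at 0 in every library, and their summed level was 0.7 to 2.5 CPM. Among 8 keratinocyte markers, 4 were at 0 in every library (Krt5, Krt14, Krt1 and Cdh1). Their summed level was 2.3, 6.4 and 4.0 CPM in 3 libraries and 52.7 CPM in high-passage DSCs, nearly all of it Dsp. Among 8 sebocyte markers, 2 were at 0 in every library. Their summed level was 17.3 CPM in low-passage DPCs, 46.0 CPM in high-passage DPCs, 11.5 CPM in low-passage DSCs and 12.1 CPM in high-passage DSCs. Most of it was Mgst1 (15.4, 38.9, 10.5 and 10.6 CPM in the same order). Mc5r was 0.27, 5.44, 0 and 0.20 CPM, and Scd3 was 1.14, 0.56, 0.74 and 0.68 CPM. The sebocyte sum was thus highest in the library in which most of the lipid synthesis genes were lowest, but chiefly through Mgst1. What part these cells have in the results was not tested.

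SREBP acts on promoters together with NF-Y, which binds CCAAT, and Sp1, which binds GGGCGG. The 250 bases before the gene start were taken from the RefSeq promoter table (build GRCm38.p6), where 25 of the 31 genes had an entry, and both strands were searched. CCAAT was present before 20 of these 25 genes (80.0%), against 37.5% of 27025 genes in the table and 40.3% of the 10982 tested genes in it. GGGCGG was present before 21 (84.0%), against 35.4% of all and 62.7% of tested genes. The sterol regulatory element TCACNCCAC was found before 1 gene, Hmgcs1 (4.0%), against 1.22% of all and 1.24% of tested genes. These matches are letters in a window and not sites of binding, and variants of the 3 motifs were not searched. 5 promoters are shown, from the 10 genes whose window lay outside the gene and held no annotated exon. They belong to the 4 of these 10 genes with the lowest change from low-passage to high-passage DPCs, and to Scap, which had the highest. Each runs from 5′ to 3′ on the strand of the gene, and capitals mark matches to the 3 motifs on either strand. Hmgcs1 lies at chr13:119690101-119690350 (+), Mvd at chr8:122443423-122443672 (-), Acly at chr11:100528001-100528250 (-), Fasn at chr11:120824548-120824797 (-) and Scap at chr9:110333038-110333287 (+).
Hmgcs1: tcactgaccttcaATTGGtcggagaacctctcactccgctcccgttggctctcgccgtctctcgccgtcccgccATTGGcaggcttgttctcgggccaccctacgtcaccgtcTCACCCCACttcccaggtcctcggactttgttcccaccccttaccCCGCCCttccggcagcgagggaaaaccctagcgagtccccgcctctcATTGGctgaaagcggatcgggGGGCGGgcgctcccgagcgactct
Mvd: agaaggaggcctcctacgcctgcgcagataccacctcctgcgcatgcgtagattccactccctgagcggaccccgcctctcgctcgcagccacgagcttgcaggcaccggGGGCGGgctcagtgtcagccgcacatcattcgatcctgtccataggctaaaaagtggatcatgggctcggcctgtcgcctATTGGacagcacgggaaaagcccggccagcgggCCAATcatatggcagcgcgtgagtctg
Acly: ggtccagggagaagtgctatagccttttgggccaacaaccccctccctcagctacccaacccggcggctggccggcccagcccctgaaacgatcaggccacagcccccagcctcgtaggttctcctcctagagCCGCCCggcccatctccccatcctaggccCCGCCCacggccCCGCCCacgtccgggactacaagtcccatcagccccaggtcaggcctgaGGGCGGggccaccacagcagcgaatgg
Fasn: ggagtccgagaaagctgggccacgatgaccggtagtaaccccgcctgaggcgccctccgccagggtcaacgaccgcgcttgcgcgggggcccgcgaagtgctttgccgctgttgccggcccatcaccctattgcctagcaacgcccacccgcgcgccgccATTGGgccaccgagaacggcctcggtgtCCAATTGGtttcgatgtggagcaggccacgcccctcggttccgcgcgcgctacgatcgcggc
Scap: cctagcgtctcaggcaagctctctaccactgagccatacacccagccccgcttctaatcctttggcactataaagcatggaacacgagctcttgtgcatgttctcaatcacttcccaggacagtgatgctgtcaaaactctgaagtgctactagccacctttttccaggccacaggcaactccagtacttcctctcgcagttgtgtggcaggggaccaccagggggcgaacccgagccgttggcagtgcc
The Hmgcs1 promoter held 1 match to TCACNCCAC, 137 bases before the start, with 3 CCAAT and 2 GGGCGG matches. The Mvd promoter held 2 CCAAT matches, the Fasn promoter 3, of which a pair overlap in 1 palindrome, and the Acly promoter 4 GGGCGG matches and no CCAAT. The Scap window shown held none of the 3 motifs. A second RefSeq start of Scap, not shown because its window reaches into an annotated exon, had 1 GGGCGG match.

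Levels below are CPM after TMM scaling, a correction for the makeup of each library. A change is the difference of log2 CPM, passage 9 minus passage 3, or DPCs minus DSCs. The 95% interval after it is an exact Clopper-Pearson interval computed from halved counts, because the excess of even counts in the table points to both mates of a read pair having been counted. It covers counting error only and says nothing of how much a second culture would differ. A gene was called lower or higher beyond counting error where this interval left out 0, and the share of all 16734 genes with a mean count of at least 10 that met the same rule is given as background. In bulk RNA, fewer cells with a transcript and less transcript per cell cannot be told apart.

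Lipid synthesis genes were lower in high-passage than in low-passage DPCs along nearly the whole of both pathways. The median change of the 31 genes in DPCs was -0.75 on the log2 scale, against 0.03 over all tested genes. Their summed level was 6448 CPM in low-passage DPCs and 3388 CPM in high-passage DPCs. In DSCs the same sum was 4880 CPM at passage 3 and 4109 CPM at passage 9, with a median change of -0.21 against 0.00 over all tested genes. Without Scd2, the most abundant of them, the sum was 4405 and 2583 CPM in DPCs and 3269 and 2952 CPM in DSCs. The low-passage DPC library was thus the highest of the 4 and the high-passage DPC library the lowest, with both DSC libraries between them.

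Of the 31 genes, 14 were at least 2-fold lower in high-passage DPCs, where 15.0% of all tested genes were, and 1 was at least 2-fold higher, where 16.1% were. Among the 12192 genes with a mean count of at least 100, as all 31 had, 13.0% were at least 2-fold lower. The study's 4-fold threshold, which it gave for DPCs/DSCs, is applied here to DPCs alone. By it, 3 were lower (background 4.36%) and 0 were higher (background 5.58%). Counting error was exceeded downwards by 28 of the 31 (background 33.8%, and 40.2% of genes with a mean count of at least 100) and upwards by 2, Scap and Insig2 (background 35.2%). The interval of Sc5d held 0. In DSCs, 0 of the 31 changed 2-fold in either direction, where 14.8% of all tested genes did. Counting error was exceeded downwards by 20 in DSCs (background 27.7%, and 33.8% of genes with a mean count of at least 100) and upwards by 6 (background 28.1%).

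**Figure D1:**
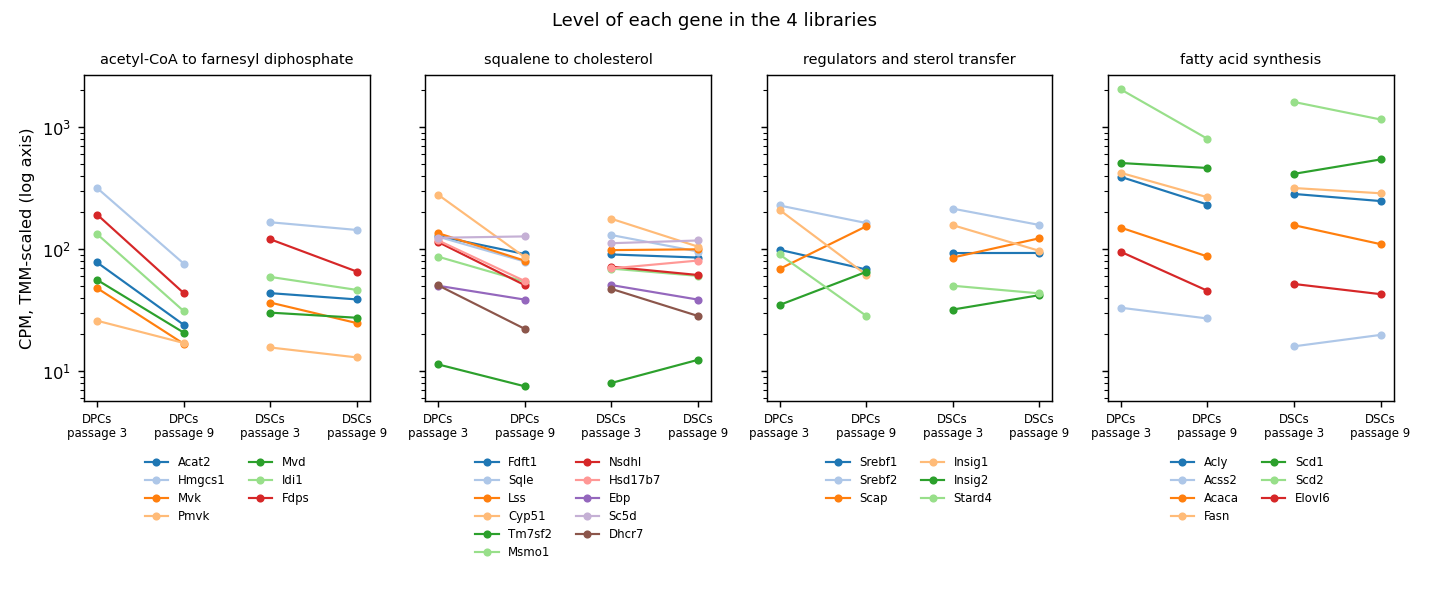
Level of each of the 31 genes in the 4 libraries, in TMM-scaled CPM on a log axis, with 1 panel per role and 1 point per library (no replicates, so no error bars). Lines join the passages of a cell type. Most lines slope down more steeply in DPCs than in DSCs, while Scap and Insig2 slope up in both.

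The enzymes from acetyl-CoA to farnesyl diphosphate differed most between the DPC libraries. Their median change was -1.70 in DPCs and -0.27 in DSCs, and 6 of 7 were at least 2-fold lower in high-passage DPCs (background 15.0%). Summed over the 7, the level was 850 CPM in low-passage DPCs, 229 CPM in high-passage DPCs, 472 CPM in low-passage DSCs and 359 CPM in high-passage DSCs.

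Hmgcs1, which makes HMG-CoA (chr13:119690379-119708260), was 317 CPM in low-passage DPCs, 76.2 CPM in high-passage DPCs, 166 CPM in low-passage DSCs and 144 CPM in high-passage DSCs. Its change was -2.06 in DPCs (interval -2.14 to -1.97), a level 24.0% of that at passage 3, and -0.21 in DSCs (interval -0.28 to -0.14). Its promoter is the one shown above with a match to TCACNCCAC. Idi1, the isomerase that makes the starter unit of isoprenoid chains (chr13:8885501-8892451), was 133, 31.1, 59.2 and 46.3 CPM in the same order of libraries. Its change was -2.09 in DPCs (interval -2.23 to -1.96) and -0.35 in DSCs (interval -0.48 to -0.23), with 17.7% of its windows of 50 bases also found in other genes. High-passage DPCs held the lowest level of both genes and low-passage DPCs the highest.

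Fdps, farnesyl diphosphate synthase (chr3:89093588-89101959), was 192 CPM in low-passage DPCs, 43.7 CPM in high-passage DPCs, 121 CPM in low-passage DSCs and 65.5 CPM in high-passage DSCs. It was 4.40-fold lower in high-passage than low-passage DPCs (log2 -2.14, interval -2.25 to -2.03), and it had the lowest change of the 31 genes in DSCs as well (-0.88, interval -0.98 to -0.79). Of the 4398 windows of 50 bases along its transcripts, 26.2% also occur in other genes, and 26.7% of its exonic bases lie in the overlapping gene Gm43738 on the same strand, so its counts could be shared. Fdps, Idi1 and Hmgcs1 were the 3 genes beyond the 4-fold threshold in DPCs, of which Idi1 was at -1.97 on the log2(FPKM + 1) scale.

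Acat2, the thiolase of the opening step, was 77.8 CPM in low-passage DPCs, 24.0 CPM in high-passage DPCs, 43.6 CPM in low-passage DSCs and 38.7 CPM in high-passage DSCs. Its change was -1.70 in DPCs (interval -1.86 to -1.54) and -0.17 in DSCs (interval -0.31 to -0.03), and 39.1% of its windows also occur in other genes, chiefly its neighbour Acat3. Mevalonate is then phosphorylated by Mvk and Pmvk and decarboxylated by Mvd. Mvk was 47.9, 16.8, 36.5 and 24.7 CPM in the same order, with changes of -1.51 in DPCs (interval -1.71 to -1.33) and -0.56 in DSCs (interval -0.72 to -0.40). Mvd was 56.0, 20.7, 30.2 and 27.4 CPM, with changes of -1.43 in DPCs (interval -1.61 to -1.26) and -0.14 in DSCs, where the interval of -0.31 to 0.03 held 0. Pmvk stood apart from its neighbours in the pathway. It was 25.9, 17, 15.6 and 12.9 CPM, a change of -0.60 in DPCs (interval -0.82 to -0.40) and -0.27 in DSCs (interval -0.51 to -0.03).

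The 11 enzymes from squalene to cholesterol had a median of -0.68 for the change in DPCs and -0.20 for that in DSCs. At least 2-fold lower in high-passage DPCs were 4 of them (background 15.0%). Cyp51, the lanosterol demethylase (chr5:4081145-4104746), was the furthest of these. It was 279 CPM in low-passage DPCs, 85.8 CPM in high-passage DPCs, 177 CPM in low-passage DSCs and 105 CPM in high-passage DSCs. The change was -1.70 in DPCs (interval -1.78 to -1.62) and -0.76 in DSCs (interval -0.83 to -0.68), so that both cell types were lower at high passage.

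Dhcr7, the reductase of the last step of one branch to cholesterol, was 50.4, 22.2, 47.2 and 28.3 CPM in DPCs at passage 3, DPCs at passage 9, DSCs at passage 3 and DSCs at passage 9. Its changes were -1.18 in DPCs (interval -1.36 to -1.02) and -0.74 in DSCs (interval -0.89 to -0.59). Nsdhl, which takes part in removing methyl groups from lanosterol, was 114, 50.6, 71.8 and 61.4 CPM, with changes of -1.17 in DPCs (interval -1.29 to -1.06) and -0.23 in DSCs (interval -0.34 to -0.12). Dhcr7 and Cyp51 were thus lower in both cell types, while Nsdhl was lower chiefly in DPCs. Hsd17b7, a ketosteroid reductase of the same demethylation, was 118, 54.7, 69.5 and 80.6 CPM. It was lower in high-passage DPCs (-1.11, interval -1.22 to -1.0) and higher in high-passage DSCs (0.21, interval 0.11 to 0.32).

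The other 7 enzymes of this stretch were less than 2-fold apart between the DPC libraries. Squalene synthase Fdft1 had a change of -0.49 in DPCs and -0.08 in DSCs, squalene epoxidase Sqle -0.68 and -0.45, lanosterol synthase Lss -0.75 and 0.02, and the methylsterol oxidase Msmo1 -0.68 and -0.20. The sterol isomerase Ebp had nearly equal changes of -0.38 in DPCs (interval -0.52 to -0.23) and -0.40 in DSCs (interval -0.53 to -0.26). The sterol desaturase Sc5d kept to a narrow range of 124, 127, 112 and 118 CPM in DPCs at passage 3, DPCs at passage 9, DSCs at passage 3 and DSCs at passage 9. Its intervals, -0.05 to 0.12 in DPCs and -0.01 to 0.16 in DSCs, held 0. The sterol reductase Tm7sf2 had the fewest counts of the 31 genes, at 11.3, 7.5, 8.0 and 12.4 CPM. Its change was -0.59 in DPCs (interval -0.92 to -0.28) and 0.63 in DSCs (interval 0.34 to 0.93), with 12.1% of its exonic bases inside Vps51 on the same strand.

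**Figure D2:**
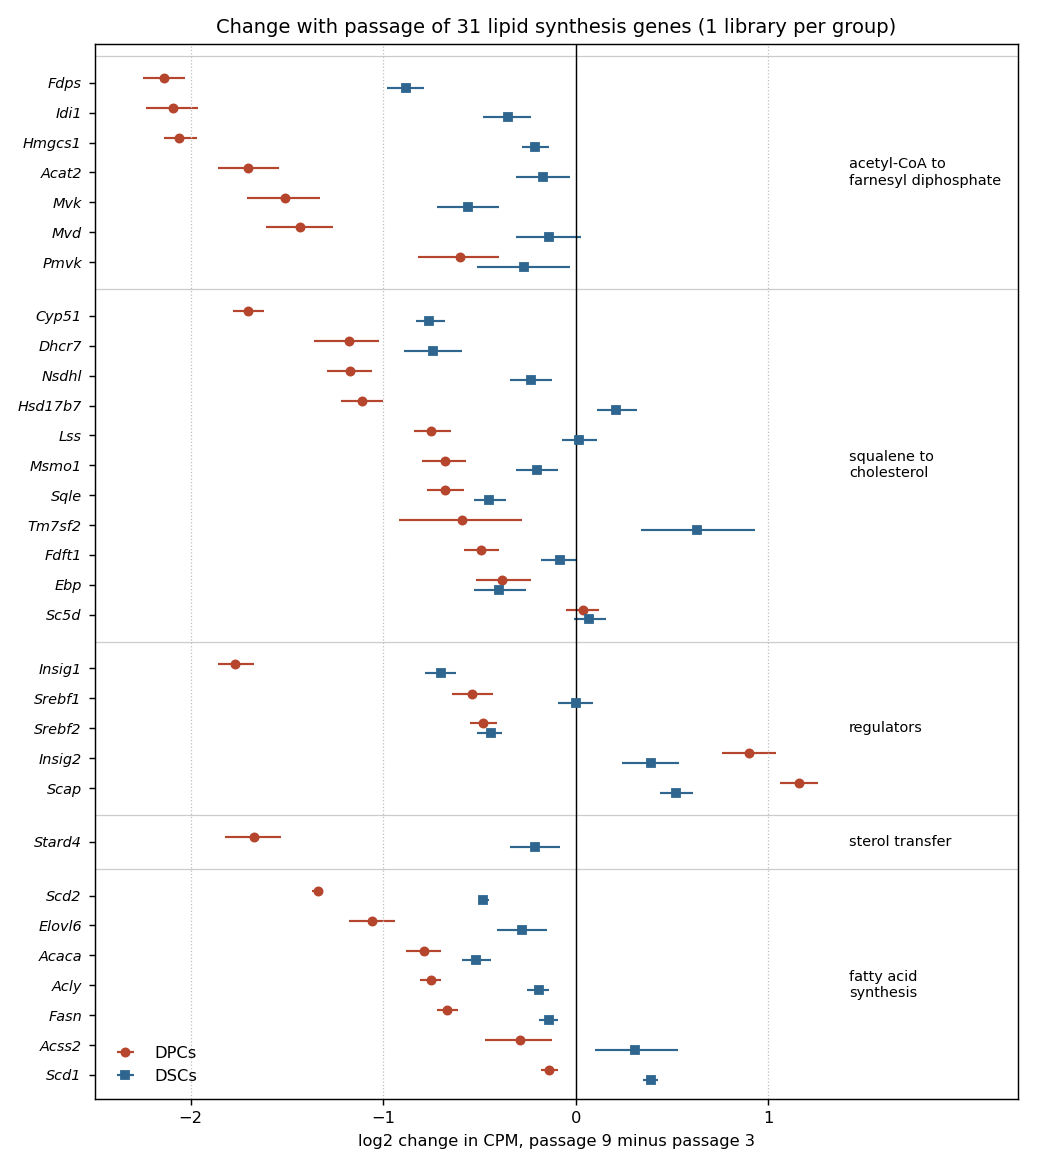
Log2 change in CPM from passage 3 to passage 9 for each gene, grouped by role, in DPCs (circles) and DSCs (squares), with 95% counting intervals as bars. Dotted lines mark 2-fold and 4-fold. In DPCs 14 genes lie at or below -1 and Scap lies above 1, while in DSCs no gene reaches 2-fold.

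The regulators divided by sign. Insig1 (chr5:28071363-28078662), both a brake on SREBP and its target, was 210 CPM in low-passage DPCs, 61.8 CPM in high-passage DPCs, 157 CPM in low-passage DSCs and 96.9 CPM in high-passage DSCs. Its change was -1.77 in DPCs (interval -1.86 to -1.67) and -0.70 in DSCs (interval -0.78 to -0.62). Insig2, the related brake, went the other way, at 34.8, 65.1, 31.9 and 41.9 CPM in the same order. Its change was 0.90 in DPCs (interval 0.76 to 1.04) and 0.39 in DSCs (interval 0.24 to 0.54). Per transcript length, in the deposited FPKM, Insig1 was 4.13 times Insig2 in low-passage DPCs and 0.713 times in high-passage DPCs. In DSCs this ratio was 3.70 at low and 1.88 at high passage.

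Scap, the escort of SREBP (chr9:110333288-110384950), was 68.8 CPM in low-passage DPCs, 154 CPM in high-passage DPCs, 85.4 CPM in low-passage DSCs and 123 CPM in high-passage DSCs. It was 2.23-fold higher in high-passage DPCs (log2 1.16, interval 1.06 to 1.26) and 1.44-fold higher in high-passage DSCs (log2 0.52, interval 0.44 to 0.61). Both high-passage libraries stood above both low-passage libraries for Scap and Insig2. Of the transcripts for SREBP itself, Srebf2 was 228, 164, 215 and 158 CPM in DPCs at passage 3, DPCs at passage 9, DSCs at passage 3 and DSCs at passage 9. The change in Srebf2 was nearly the same in the cell types, -0.48 in DPCs (interval -0.55 to -0.41) and -0.44 in DSCs (interval -0.51 to -0.38). Srebf1 was 98.9, 68.2, 92.9 and 93.1 CPM, a change of -0.54 in DPCs (interval -0.64 to -0.43) and 0.00 in DSCs (interval -0.09 to 0.09). Counts per gene do not separate the 2 SREBP products of Srebf1, nor do they show how much SREBP was released.

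Stard4, a carrier that moves cholesterol between membranes, had changes like those of the early enzymes. It was 90.5 CPM in low-passage DPCs, 28.4 CPM in high-passage DPCs, 50.1 CPM in low-passage DSCs and 43.4 CPM in high-passage DSCs. The change was -1.67 in DPCs (interval -1.82 to -1.53) and -0.21 in DSCs (interval -0.34 to -0.08).

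The 7 genes of fatty acid synthesis had a median of -0.75 for the change in DPCs and -0.19 for that in DSCs. All 7 were lower beyond counting error in high-passage DPCs (background 33.8%). Acetyl-CoA for this pathway comes from Acly, which splits citrate, and from Acss2, which uses acetate. Acly was 392 CPM in low-passage DPCs, 232 CPM in high-passage DPCs, 284 CPM in low-passage DSCs and 248 CPM in high-passage DSCs, with changes of -0.75 in DPCs (interval -0.81 to -0.70) and -0.19 in DSCs (interval -0.25 to -0.14). Acss2 was 33.1, 27.0, 16 and 19.8 CPM in the same order, lower at high passage in DPCs (-0.29, interval -0.47 to -0.12) and higher in DSCs (0.31, interval 0.10 to 0.53). The committed step and the chain building were closer to Acly. Acetyl-CoA carboxylase Acaca had changes of -0.79 in DPCs (interval -0.88 to -0.70) and -0.52 in DSCs (interval -0.59 to -0.44), with 30.4% of its windows also found in other genes. Fatty acid synthase Fasn had changes of -0.67 in DPCs (interval -0.72 to -0.61) and -0.14 in DSCs (interval -0.19 to -0.09).

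The desaturases Scd1 and Scd2, which turn saturated into monounsaturated fatty acids, are neighbours on chromosome 19 and did not move alike. Scd2 (chr19:44293674-44306864) was 2042 CPM in low-passage DPCs, 804 CPM in high-passage DPCs, 1611 CPM in low-passage DSCs and 1157 CPM in high-passage DSCs. Its change was -1.34 in DPCs (interval -1.37 to -1.32) and -0.48 in DSCs (interval -0.50 to -0.45). Scd1 (chr19:44394455-44407879) was 509, 463, 414 and 544 CPM, with changes of -0.14 in DPCs (interval -0.18 to -0.09) and 0.39 in DSCs (interval 0.35 to 0.43). High-passage DSCs thus held the highest level of Scd1 and low-passage DPCs the highest level of Scd2. Of the windows of Scd1, 4.6% also occur in other genes, Scd2 among them. Elovl6, which lengthens palmitate, was 95.2, 45.6, 51.8 and 42.7 CPM, a change of -1.06 in DPCs (interval -1.18 to -0.94) and -0.28 in DSCs (interval -0.41 to -0.15). On the FPKM scales its change in DPCs was -0.99 or -0.91, short of 2-fold.

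Levels of different genes were compared per transcript length, in the deposited FPKM. Scd2 was highest in every library, from 135 FPKM in high-passage DPCs to 344 FPKM in low-passage DPCs. The order of the others depended on the library. Fdps was above Acly at passage 3 (136 against 94.2 FPKM in DPCs and 80.1 against 59.0 FPKM in DSCs) and below it at passage 9 (29.9 against 49.95 FPKM in DPCs and 40.7 against 52.4 FPKM in DSCs). The lowest averages over the 4 libraries were those of Tm7sf2 (7.88 FPKM), Acss2 (7.92 FPKM), Elovl6 (9.4 FPKM) and Stard4 (10.2 FPKM). Tm7sf2 and Acss2 were too close to be put in order, and with 1 library per group no neighbours in this order have a replicate spread.

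The cell types were then compared at each passage. These differences use the same 4 libraries as the changes with passage and are not further evidence for them. At passage 3 the median difference, DPCs minus DSCs, was 0.46, against 0.00 over all tested genes. Counting error was exceeded by 24 genes higher in DPCs (background 22.8%, and 28.0% of genes with a mean count of at least 100) and by 1 gene lower in DPCs, Scap (background 24.1%). Idi1 (1.17, interval 1.06 to 1.27) and Acss2 (1.05, interval 0.85 to 1.26) were the 2 genes at least 2-fold higher in low-passage DPCs, where 5.43% of all tested genes were. Hmgcs1 followed at 0.93 (interval 0.87 to 1.00), Mvd at 0.89 and Elovl6 at 0.88. At passage 9 the median difference was -0.29, against -0.01 over all tested genes, and it was smaller in size with scaling by total counts (-0.19) or on the FPKM scales (-0.18 and -0.17). Counting error was exceeded by 22 genes lower in DPCs (background 31.8%, and 38.3% of genes with a mean count of at least 100) and by 5 higher in DPCs (background 29.3%), and 0 differed 2-fold (background 20.1%).

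The order of the cell types was therefore opposite at the 2 passages for many of the genes. Of the 31, 18 were higher in DPCs at passage 3 and lower in DPCs at passage 9 beyond counting error on both sides. So were 8.54% of all tested genes and 11.3% of those with a mean count of at least 100. The 18 were counted with TMM scaling only. Acly (-0.09) and Fasn (-0.11) were nearly level at passage 9, and in FPKM Fasn was 29.3 in DPCs and 29.0 in DSCs there. Hmgcs1 had the widest swing, from 0.93 at passage 3 to -0.91 at passage 9 (interval -1.01 to -0.82). Idi1 went from 1.17 to -0.57, Acat2 from 0.84 to -0.69 and Stard4 from 0.85 to -0.61. Pmvk (0.73 and 0.39), Acss2 (1.05 and 0.45) and Sc5d (0.15 and 0.11) were higher in DPCs at both passages, and Scap ran the opposite course to most, from -0.31 to 0.33 (1 of 31 beyond counting error on both sides, background 6.80%). Put as changes with passage, the change was lower in DPCs than in DSCs for 28 of the 31 genes, where it was for 50.6% of all tested genes. Beyond counting error on both sides, 4 genes were lower at high passage in DPCs and higher in DSCs (background 4.36%).

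**Figure D3:**
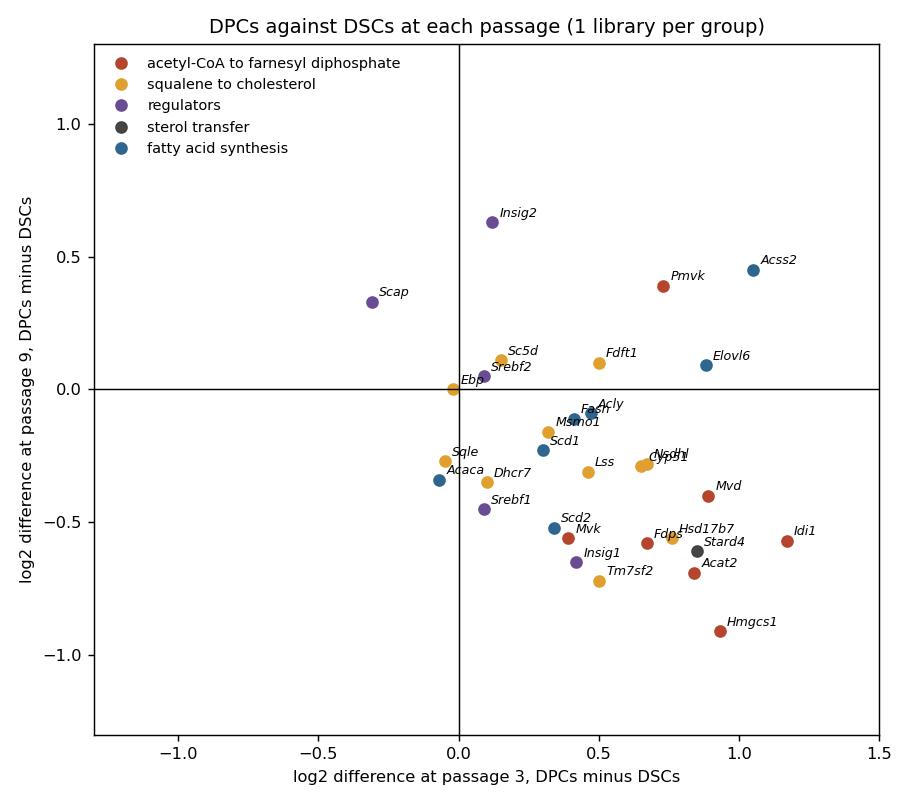
Log2 difference between DPCs and DSCs at passage 3 (x axis) and at passage 9 (y axis), 1 point per gene, coloured by role, with no error bars because each group is 1 library. Most points lie at the lower right, higher in DPCs at passage 3 and lower at passage 9, with Hmgcs1 at 0.93 and -0.91. Scap lies at the upper left.

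A model with terms for cell type and passage was fitted to the 4 libraries. Its 1 residual degree of freedom measures how far the cell types differ in their response, not how far cultures differ. By the quasi-likelihood test of edgeR, with p adjusted over all tested genes after Benjamini and Hochberg, 0 of the 31 genes had an adjusted p under 0.05 for passage, as had 0 of 16734 genes. The adjusted p of the 31 genes ran from 0.218 (Fdps) to 0.989 (Acss2). Without adjustment, 9 of the 31 had p under 0.05 by edgeR (background 16.9%). Mvk, Idi1, Fdps, Cyp51, Dhcr7, Insig1 and Acaca were the 7 lower at high passage (background 7.79%), and Scap and Insig2 the 2 higher (background 9.07%). DESeq2's Wald test on the same model gave 3 genes with an adjusted p under 0.05, all lower at high passage, where it called 3.02% of genes lower. They were Fdps (adjusted p = 0.00432, log2 change -1.51, SE 0.39), Cyp51 (adjusted p = 0.0129, log2 change -1.23, SE 0.35) and Insig1 (adjusted p = 0.0187, log2 change -1.23, SE 0.37). Each of these 3 genes was lower at high passage in both cell types, whereas Hmgcs1 (DESeq2 adjusted p = 0.118) and Acat2 (DESeq2 adjusted p = 0.219), with large changes in DPCs and small ones in DSCs, did not pass.

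Neighbouring pathways did not show the same median. The 11 genes that process SREBP or carry out sterol-regulated degradation had a median of -0.18 for the change in DPCs and 0.12 for that in DSCs, and 0 of them changed 2-fold in either cell type. The 10 tested genes of the isoprenoid branches, which draw on farnesyl diphosphate, had medians of 0.12 and 0.20, and none changed 2-fold. The lowest by mean over the cell types were Pdss1 (-0.69 in DPCs, -0.59 in DSCs), Dhdds (-0.11, -0.93) and Icmt (-0.13, -0.44). The highest after Ggps1 were Nus1 (0.40 and 0.41) and Coq2 (0.35 and 0.38). Ggps1, which makes geranylgeranyl diphosphate, was 40.2, 70.2, 36.5 and 50.7 CPM in DPCs at passage 3, DPCs at passage 9, DSCs at passage 3 and DSCs at passage 9. Its change was 0.80 in DPCs (interval 0.67 to 0.94) while that of Fdps, the enzyme before it, was -2.14.

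The 17 genes of sterol uptake, efflux and storage had a median of 0.04 for the change in DPCs and 0.08 for that in DSCs. Their changes in DPCs ran from -2.04 to 1.52. In high-passage DPCs 5 were at least 2-fold lower (background 15.0%) and 2 at least 2-fold higher (background 16.1%). Tmem97, a sterol-responsive membrane protein, was 67.4, 16.4, 64.4 and 28.3 CPM, a change of -2.04 in DPCs (interval -2.23 to -1.86) and -1.19 in DSCs (interval -1.33 to -1.05). Scarb1, a lipoprotein receptor, had changes of -1.59 in DPCs and -0.75 in DSCs, and Ch25h, which makes an oxysterol, -1.65 and -1.28. On the other side, the lipoprotein receptor ligase Mylip, a target of the sterol-sensing LXR receptors, was 26.4, 63.6, 25.4 and 52.8 CPM. Its changes were 1.27 in DPCs (interval 1.11 to 1.43) and 1.05 in DSCs (interval 0.90 to 1.21). The sterol exporter Abcg1, also an LXR target, had changes of 0.75 in DPCs (interval 0.65 to 0.86) and 0.68 in DSCs (interval 0.53 to 0.84). Cyp27a1, an oxysterol-making enzyme, had changes of 1.52 and 1.36 at a level of 12.0 CPM or less.

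Of the 22 tested genes of fatty acid elongation, desaturation and lipid assembly, 5 were at least 2-fold lower and 2 at least 2-fold higher in high-passage DPCs, with medians of -0.10 in DPCs and -0.13 in DSCs. Fads2 and Fads3, of the fatty acid desaturase family, were among the lower ones. Fads2 was 180, 59.9, 254 and 122 CPM, with changes of -1.59 in DPCs and -1.06 in DSCs. Fads3 had changes of -1.24 and -0.81. Aacs, which makes acetoacetyl-CoA from a ketone body, had changes of -1.58 and -0.38. Malic enzyme Me1, a source of NADPH for lipid synthesis, was higher in high-passage DPCs, at 176, 594, 174 and 222 CPM. Its change was 1.76 in DPCs (interval 1.70 to 1.81) and 0.35 in DSCs (interval 0.29 to 0.42), the opposite sign to that of Fasn. Agpat2, an acyltransferase of phospholipid and triglyceride assembly, had changes of 2.10 and 1.28, and Elovl7 had too few counts to read in DPCs (9 and 12).

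The 17 genes of fatty acid oxidation and uptake had a median of 0.03 for the change in DPCs and 0.04 for that in DSCs. Plin2, which coats lipid droplets, was 109, 32.1, 83.5 and 61.6 CPM in DPCs at passage 3, DPCs at passage 9, DSCs at passage 3 and DSCs at passage 9, a change of -1.76 in DPCs (interval -1.90 to -1.63) and -0.44 in DSCs. Lipe, a lipase of stored fat, was 4.13, 19.2, 5.17 and 8.85 CPM, a change of 2.20 in DPCs (interval 1.85 to 2.59) and 0.77 in DSCs. Droplet coat and lipase thus differed in opposite directions. Cpt2 had changes of -1.43 and -0.37 and Cpt1c 1.03 and 0.62. Cd36, a fatty acid receptor, had only 63 and 6 counts in DPCs, and Ppargc1a, a coactivator of oxidation, had 4, 64, 0 and 23 counts in the same order of libraries.

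**Figure D4:**
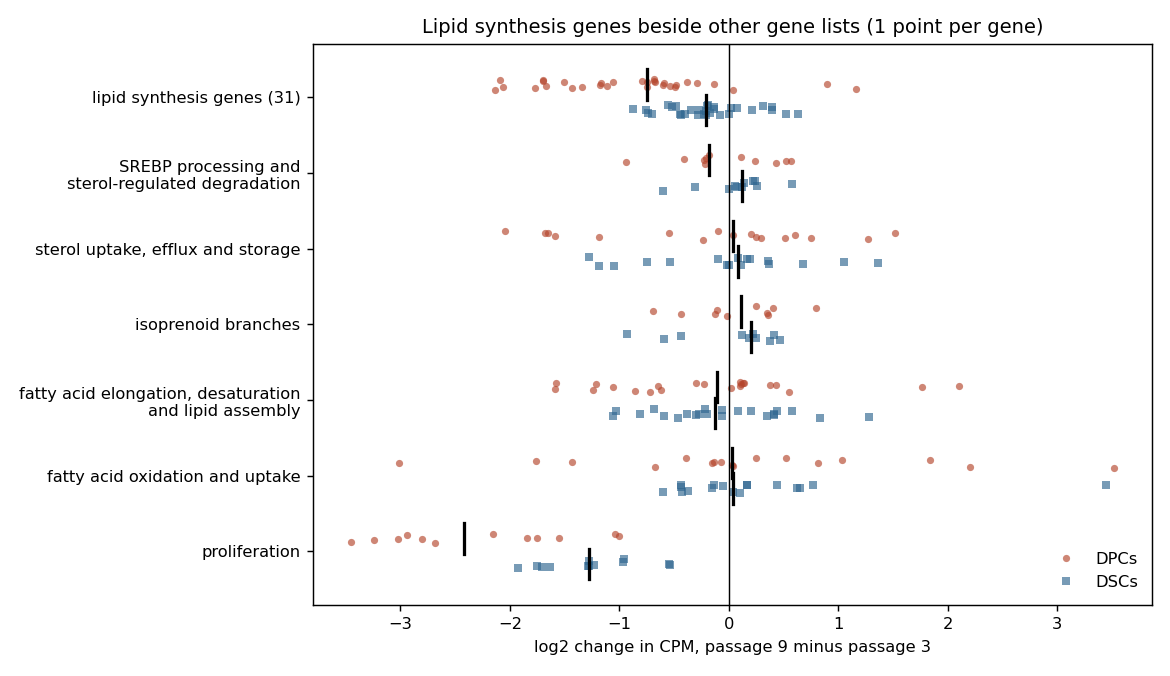
Log2 change in CPM from passage 3 to passage 9 for the 31 genes and for 6 other gene lists, 1 point per tested gene, with DPCs as circles and DSCs as squares and black bars at each list's median. The 31 genes have medians of -0.75 and -0.21. The medians of the other lipid lists lie between -0.18 and 0.20, and those of the proliferation list at -2.42 and -1.28. The point furthest to the right in each cell type is Ppargc1a, whose value depends on the prior count because it had 4 counts in low-passage DPCs and 0 in low-passage DSCs.

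Proliferation genes moved beside the lipid synthesis genes. Their summed level over 12 genes was 897 and 226 CPM in DPCs and 754 and 325 CPM in DSCs at passages 3 and 9. All 12 were lower beyond counting error at high passage in DPCs (background 33.8%) and in DSCs (background 27.7%). Their median change was -2.42 in DPCs and -1.28 in DSCs. Furthest down by the mean over the cell types were the cyclins Ccnb1 (-3.45 and -1.75) and Ccna2 (-3.24 and -1.93). The mitotic kinase Plk1 (-2.94 and -1.71) followed. The sums of the 7 early enzymes and of the proliferation list were both highest in low-passage DPCs, next in low-passage DSCs, then in high-passage DSCs, and lowest in high-passage DPCs. In DSCs, where the proliferation list was at -1.28, the early enzymes were at -0.27. Whether the number of dividing cells has a part in the levels of the lipid synthesis genes was not tested.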

How the data were processed

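RNA-seq data of cultured mouse DPCs and DSCs at passages 3 and 9 were used (4 libraries, 1 for every group). The counts per gene that the authors deposited are raw: they are whole numbers and not normalized. The deposited FPKM values were scaled by the authors for transcript length and library size. The submitters' processing notes name Bowtie 0.12.2 and builds mm8 and mm9, whereas 94.1% of the 51633 gene IDs found in GENCODE M21 had identical positions in GRCm38, so deposited positions are read as that build. The counting program and its use of strand are not given in the sources used here. The study's methods name an NEBNext kit and the labels a TruSeq kit.

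Counts were scaled by TMM in edgeR 4.0.16 (R 4.3.3, limma 3.58.1). The filter kept 16734 genes, those with a mean count of at least 10, and log2 CPM took a prior count of 2. Depth was 34981284 to 47604059 counts per library. Changes are differences between libraries, with 95% exact Clopper-Pearson intervals from halved counts that cover counting error only. In low-passage DPCs, 1339 genes had 2 counts, 583 had 3, 754 had 4 and 451 had 5, hence the halving. No test between groups of 1 library was made. An additive model of cell type and passage was fitted to all genes with edgeR's quasi-likelihood test, and with DESeq2 1.42.0 as an alternative. The scripts were tested on simulated data. All 31 genes are named. Of each other pathway list, up to 3 genes with the largest mean change in each direction are named, except in the SREBP processing list, whose single genes are not reported here. The genes, the lists and the promoter windows were chosen with earlier results of these data known. Shared sequence was measured as 50-base windows of the transcripts found in other genes. Alternatives varied scaling, prior count, low-count filter and unit.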

Additional observations from a re-analysis of the deposited data

Results flagged for a closer look

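Several results are given here because 2 groups differed in opposite directions. None of these differences was tested, since each group is 1 library, and the values are the change in DPCs minus the change in DSCs, which equals the difference between cell types at passage 9 minus that at passage 3. A gene is given where the counting intervals left out 0 on both sides. By this rule the passage change had opposite signs in the cell types for 4 genes (4.36% of all tested genes), lower in high-passage DPCs and higher in high-passage DSCs: Tm7sf2 (-1.22), Hsd17b7 (-1.32), Acss2 (-0.60) and Scd1 (-0.53).

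The difference between DPCs and DSCs had opposite signs at the 2 passages, by the same rule, for 19 genes. Of these, 18 were higher in DPCs at passage 3 and lower at passage 9 (8.54% of all tested genes) and 1, Scap, the reverse (6.80%). These counts were made with TMM scaling only. Among the early enzymes the value was -1.85 for Hmgcs1, -1.74 for Idi1, -1.53 for Acat2, -1.29 for Mvd, -1.26 for Fdps and -0.95 for Mvk. Among the later enzymes it was -1.32 for Hsd17b7, -1.22 for Tm7sf2, -0.95 for Nsdhl, -0.94 for Cyp51, -0.77 for Lss and -0.48 for Msmo1. It was -1.46 for Stard4 and -1.07 for Insig1. Of the fatty acid genes, Scd2 had -0.87, Acly -0.56, Scd1 -0.53 and Fasn -0.52. Scap was the only one of the 19 with a positive value (0.64), below DSCs at passage 3 and above them at passage 9.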

How the results depend on the processing

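No analysis that pairs cultures was possible because each group is 1 library and the labels carry no replicate numbers. For the same reason no library could be left out. The median changes, passage changes of single genes and counts of 2-fold changes were recomputed with other scalings, prior counts, filters and the deposited FPKM. No median and no passage change of a gene reversed its direction beyond counting error. The differences between cell types were not recomputed gene by gene. Scaling by total counts moved the median difference between cell types to 0.55 at passage 3 and -0.19 at passage 9. With log2(FPKM + 0.1) these were 0.58 and -0.18, and with log2(FPKM + 1) they were 0.57 and -0.17. The median change in DPCs was -0.91 and -0.90 on these FPKM scales. The count of 2-fold changes in DPCs was 14 in place of 15 on both FPKM scales, without Elovl6 (-0.99 and -0.91), and Idi1 was short of 4-fold with log2(FPKM + 1) (-1.97). The additive model gave 0 genes with edgeR and 3 with DESeq2. Of the changes of single genes, 262 recomputed values in DPCs and 270 in DSCs stayed within the counting interval and 17 and 9 did not. Total counts or FPKM shifted the median of all genes by at most 0.10. Some alternatives were added after seeing the data. Genes that share exonic bases with another gene on the same strand were left out (27 left). So were, separately, genes with over 5% of windows in other genes (25 left) and Scd2 (30 left). The median change stayed at -0.75 in DPCs and at -0.20 or -0.21 in DSCs. The median difference between cell types was between 0.41 and 0.46 at passage 3 and -0.27 or -0.28 at passage 9. Overlaps with genes on the opposite strand were kept, among them 18.3% of the exonic bases of Fdft1, 13.2% of Scap and 12.1% of Hmgcs1. Since the use of strand in counting is not given, counts could be shared there as well. The limit throughout is 1 library per group: counting intervals are narrow at this depth, and the spread between cultures is unknown.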
